A study of Homo sapiens with 16 samples.

Results

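A set of 10 genes of glucose use and the response to low oxygen were followed through the malignant cells and the macrophages of 2 mouse mammary tumor models. They were a fixed list drawn from the 32285 genes in the count tables, namely Slc2a1, Hk2, Pfkp, Aldoa, Pgk1, Eno1, Ldha, Pdk1, Bnip3 and Car9. Glycolysis splits glucose into pyruvate with a small yield of ATP, and many tumors run it at a high rate and release the pyruvate as lactate even where oxygen is present. When oxygen is short, the hypoxia-inducible factors HIF-1 and HIF-2 are no longer degraded, and they switch on glucose transporters, most glycolytic enzymes, kinases that keep pyruvate out of the mitochondria, and proteins that handle acid and remove mitochondria. In tumors these genes are known to be raised far from blood vessels, and macrophages raise the same pathway when they are activated or enter poorly perfused regions.

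The cells came from female FVB mice, 6 weeks old at purchase, that carried tumor pieces in the mammary fat pads, either LPA1-T22 (called T22), LPA1-T127 (called T127) or, in co-transplanted mice, both on opposite sides. Both models are transplants from transgenic mice that expressed the lysophosphatidic acid receptor LPA1 in the mammary epithelium, and the study treats T22 as sensitive and T127 as resistant to inhibitors of the repair enzyme PARP. Mice received vehicle or the PARP inhibitor olaparib at 50 mg/kg daily, for 20 days in the long-term experiment, whose 8 pools mixed single-strain and co-transplanted tumors, and for 4 or 8 days in the short-term experiments, with 4 pools of T22 tumors and 4 pools of T127 tumors. Vehicle and olaparib were not compared because the tables used here link no cell to its tumor. For the same reason the cells of a label in an experiment counted as 1 sample, the pools are shown as a range only, and no difference between groups was tested.

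All values are raw UMIs (unique molecular identifiers, each marking 1 captured RNA molecule) summed over the cells of a deposited label and given per 1000000 UMIs (CPM, counts per 1000000). The kept cells numbered 25723 in the long-term, 15094 in the short-term T22 and 8007 in the short-term T127 experiment, with 34755906 to 55600377 UMIs in a pool. In the long-term pools 4146 barcodes occurred in more than 1 pool, and keeping the deepest copy left out 5122 of 30845 cells, almost all from pools 1 and 2, which lost 45.9% and 45.5%. The copies of a barcode carried the same label in 1372 cases (33.1%), so that the label of the rest depends on the copy kept. The 6 epithelial marker genes summed to between 993 and 8846 CPM in the long-term malignant labels against 101 to 271 CPM in the macrophage labels, while the 10 macrophage markers summed to 157 to 376 CPM and to 20118 to 29798 CPM. The separation was narrower in the short-term T127 pools. There the epithelial genes summed to 1604 and 2071 CPM in the malignant labels and to 298 to 823 CPM in the macrophage labels. In the long-term pools the fibroblast genes summed to 4473 and 4459 CPM in Malign_0 and Malign_1, above their epithelial sums. They summed to 861 and 68.7 CPM in Malign_2 and Malign_3. The deposited labels Malign_0 and Malign_1 belong to T127 and Malign_2 and Malign_3 to T22, and the short-term T22 pools held 0 cells of the first pair and the short-term T127 pools 0 cells of the second. These labels were made from the cells' own expression, so that differences between them are descriptions. Intervals are 95% intervals that cover counting error only.

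A gene was counted as past 2-fold when the ratio of CPM + 1 between 2 labels was at least 2 or at most 0.5, among genes with a mean of at least 5 CPM over both labels. In all, 23 pairs of labels were compared. Pairs that share a label or an experiment share its cells, and no overlap between them is given.

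Over the 19 long-term labels with a pool range, the members had different label orders. Slc2a1, the main glucose transporter of most cell types (GLUT1), was highest in Malign_1 at 175.6 CPM and Malign_2 at 155 CPM and lowest in B cells at 12.7 CPM. The pool ranges of the first 2 overlapped, and both lay above the range of Malign_0, the next label. Bnip3, a mitochondrial membrane protein that promotes the removal of mitochondria, was at 200.3 CPM in Malign_1, where its pool range lay above that of Malign_0, the next label, and at 8.87 CPM in B cells.

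Hk2, the hexokinase that traps glucose in the cell as glucose 6-phosphate, was at 189 CPM in Macro-M1 and at 1.75 CPM in endothelial cells, a value that rests on 2 UMIs in 249 cells, with pools from 0 to 16.6 CPM. Endothelial cells of the short-term pools were few, with 1 UMI of Hk2 in 88 cells for T22 and 2 UMIs in 118 cells for T127. Pfkp, the platelet-type phosphofructokinase of the committed step, was highest in the label CD14-IL1B. It was there at 126 CPM in the long-term, 150.1 CPM in the T22 and 341 CPM in the T127 pools. In the same order, the macrophage genes of this label summed to 9889, 2629 and 4228 CPM. Its epithelial genes summed to 1102, 215 and 848 CPM. Malign_0 had the lowest long-term Pfkp level, 16.8 CPM.

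Pdk1, which blocks the entry of pyruvate into the citrate cycle, was highest in endothelial cells, at 18.4 CPM in the long-term, 14.6 CPM in the T22 and 30.0 CPM in the T127 pools, although the long-term value rests on 21 UMIs and its pools ran from 0 to 46.5 CPM. Car9, a cell-surface carbonic anhydrase that takes part in pH control, was at 18.1 CPM in Macro-others, 17.01 CPM in Macro-M1 and 16.6 CPM in Malign_3, and at 0.756 CPM in gamma delta T cells. The order of neighbours was loose throughout. Pool ranges of adjacent labels overlapped in 16 to 18 of the 18 neighbouring pairs for every member.

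**Figure D1:**
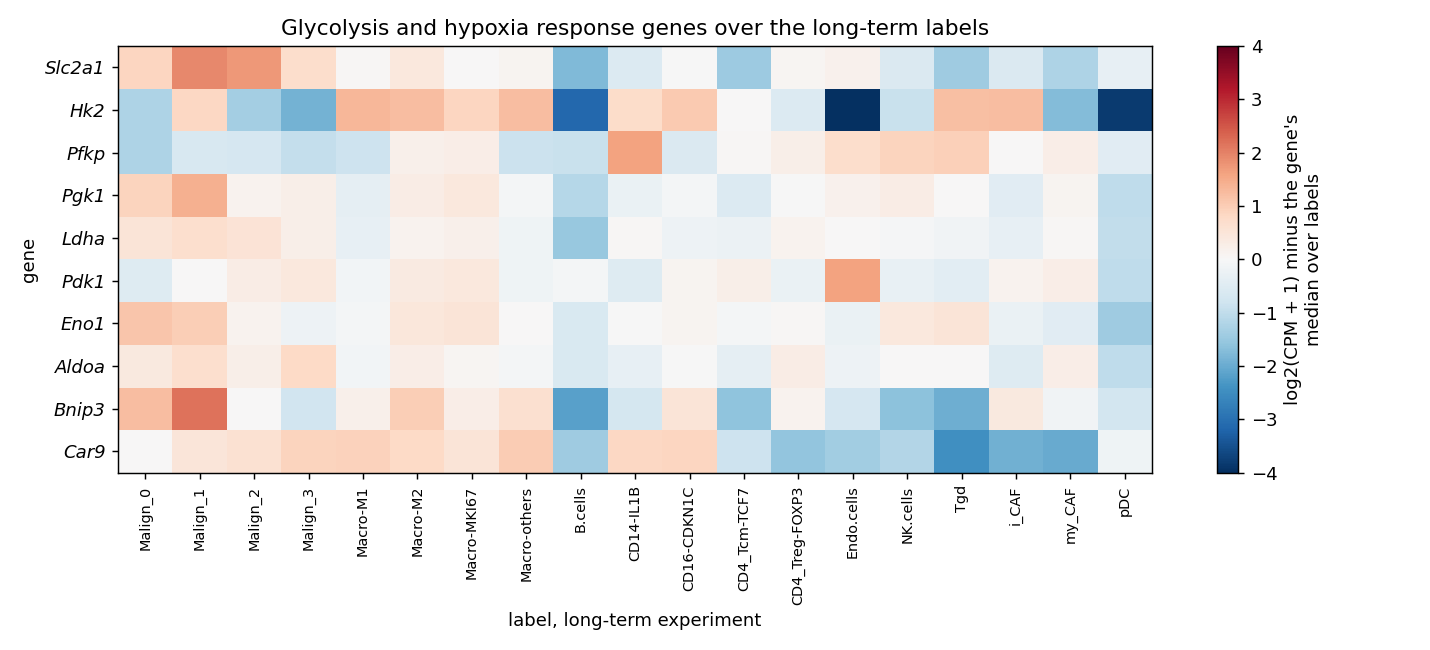
Map of the 10 genes (rows) over the 19 long-term labels (columns), where color is log2(CPM + 1) minus the gene's median over these labels. Hk2 is pale to red in the macrophage labels, with 189 CPM in Macro-M1, and deep blue in endothelial cells at 1.75 CPM (2 UMIs), while Bnip3 and Slc2a1 are reddest in Malign_1.

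Within T127, Malign_1 had more Slc2a1, Hk2 and Bnip3 than Malign_0 in every pool of both experiments. In the long-term pools Slc2a1 ran from 73.7 CPM over a median of 87.8 to 96.9 CPM in Malign_0 and from 150.5 over 180.9 to 199.3 CPM in Malign_1. Hk2 ran from 20.7 over 31.4 to 39.1 CPM in Malign_0 and from 88.5 over 146.6 to 187.7 CPM in Malign_1. Neither gene's pools overlapped between the labels.

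On the summed UMIs, Slc2a1 was 2.07-fold higher in Malign_1 (interval 2.00 to 2.15) and Hk2 4.27-fold higher (4.05 to 4.50), and these were the members past 2-fold, 2 of the 9 that reached the mean level. Over all 8590 genes tested 1.98% were past 2-fold. Bnip3 ran from 82.8 over 109.5 to 132.9 CPM in Malign_0 and from 175.6 over 194.6 to 226.7 CPM in Malign_1, again without overlap, for a log2 ratio of 0.94. Slc2a1 stood close to the limit, with a log2 ratio of 1.04 that was 0.96 with every cell thinned to 3000 UMIs, 0.99 without cells that held Mki67 or Top2a, and 0.97 with 10 in place of 1 CPM added.

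In the short-term T127 pools Slc2a1 was at 57.0, 62.7, 57.6 and 60.4 CPM in Malign_0 and at 127.9, 128.0, 126.9 and 122 CPM in Malign_1, in pool order. Hk2 was at 13.9, 14.3, 11.2 and 14.6 CPM against 61.6, 52.9, 42.7 and 60.7 CPM. Bnip3 was at 46.6, 50.1, 45.7 and 51.2 CPM against 83.9, 85.0, 80.6 and 91.7 CPM. All 3 genes kept the labels apart in each of the 4 pools, with log2 ratios of 1.08, 1.93 and 0.80. Slc2a1 and Hk2 were again the 2 members past 2-fold, against 1.64% of the 9190 genes tested. Most members kept 1 direction, with 8 of 10 higher and 1 lower in Malign_1 in every pool, and 8 had pool ranges apart. In the long-term pools 7 were higher and 1 lower in every pool, and 4 had ranges apart. The share of all genes with such pools was not computed, so nothing particular to these 3 genes is read from it. With 10 CPM added, the Slc2a1 value was 0.97 and 1 member was past 2-fold.

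The remaining enzymes were closer between these labels. In the long-term pools the log2 ratio of Malign_1 to Malign_0 was 0.59 for Pfkp, 0.54 for Pgk1, an enzyme that makes ATP directly from a glycolytic intermediate, and 0.28 for Aldoa, the aldolase that splits fructose bisphosphate. It was 0.15 for Ldha, which turns pyruvate into lactate, and 0.50 and 0.49 for Pdk1 and Car9. Pdk1 was the member that did not reach the mean level in this long-term comparison. The short-term T127 values were 0.14 for Pfkp, 0.18 for Pgk1, 0.22 for Aldoa, 0.16 for Ldha, 0.55 for Pdk1 and 0.51 for Car9.

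Eno1, the enolase that makes phosphoenolpyruvate, went the other way. It was lower in Malign_1 in all 8 long-term pools, with a log2 ratio of -0.12, and at 443, 439, 464 and 439 CPM against 492, 508, 502 and 500.2 CPM in the short-term T127 pools, a log2 ratio of -0.16. Over all genes tested the median log2 ratio was -0.06 in the long-term and -0.10 in the short-term T127 pools, so that both Eno1 values lay close to it. The median over the 10 members was 0.52 and 0.37.

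**Figure D2:**
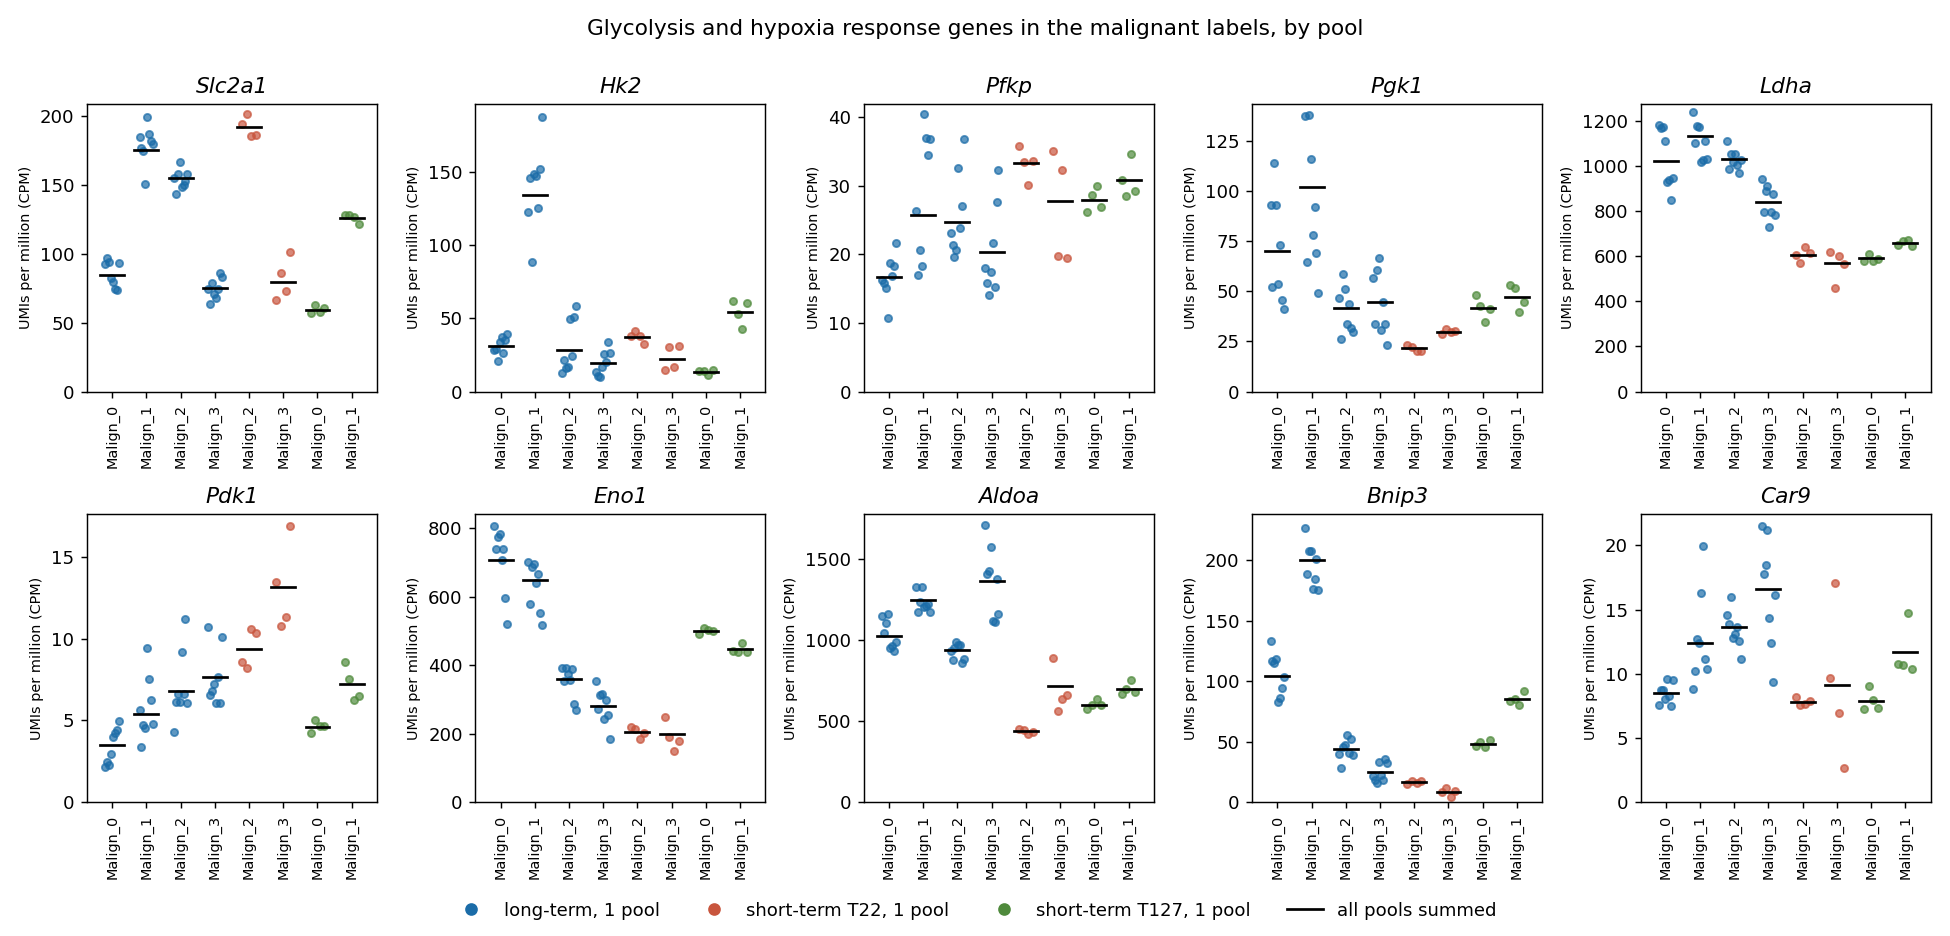
Levels of the 10 genes in the malignant labels, 1 panel a gene, with CPM on the y axis from 0, points for single pools colored by experiment and black lines for all pools summed. Slc2a1 and Hk2 pools of Malign_1 sit above all pools of Malign_0 in the long-term and the short-term T127 experiment, and in the long-term experiment Bnip3 in Malign_2 and Malign_3 sits below both.

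Of 17 other genes of the hypoxia response that could be tested, 4 were past 2-fold higher and 0 lower in Malign_1 in the long-term pools. In the short-term T127 pools 6 were higher and 0 lower. Over all genes tested 1.98% and 1.64% were past 2-fold. The lists were chosen with earlier results of these data known, so these counts are descriptions. Of the HIF subunits and regulators, 0 of 5 passed in the long-term and 0 of 6 in the short-term T127 pools. Adm, which encodes the vessel-dilating peptide adrenomedullin, was at 67.1 CPM against 15.4 CPM in the long-term pools and at 25.9 CPM against 4.88 CPM in the short-term T127 pools. In the latter it is counted among the 6 but reached the mean level only through Malign_1. Ero1l, an oxidase of the endoplasmic reticulum, had log2 ratios of 1.35 and 1.30, Ddit4, an inhibitor of mTORC1, 1.03 and 1.43, and Ankrd37 1.08 and 1.13. Vegfa, the main vessel growth factor, was at 308 CPM against 124 CPM in the short-term T127 pools and at 120.1 CPM against 67.9 CPM in the long-term pools, where its log2 ratio of 0.81 was not past 2-fold. None of the 11 other glycolysis genes tested and 0 of 15 genes of the citrate cycle and respiratory chain passed 2-fold in either experiment, and the latter had median log2 ratios of -0.18 and -0.15.

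The same labels also differed in genes that tissue dissociation is known to induce. The 6 stress genes Fos, Jun, Junb, Egr1, Hspa1a and Hspa1b, none of them a member, summed to 19722 CPM in Malign_1 (pools 15483 to 21690) against 1889 CPM in Malign_0 (1595 to 2262) in the long-term pools, and to 14338 CPM (13857 to 14749) against 2235 CPM (1971 to 2400) in the short-term T127 pools. In both experiments 4 of the 6 were past 2-fold and the heat shock genes Hspa1a and Hspa1b were not. The 6 cell cycle genes summed to 121 CPM in Malign_1 (85.2 to 154) against 233 CPM in Malign_0 (185 to 316) in the long-term pools, where 4 of the 6 were past 2-fold lower, and to 349 CPM (284 to 410) against 436 CPM (399.9 to 473) in the short-term T127 pools, where 0 were and the ranges overlapped.

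The comparison was repeated on cells whose share of stress UMIs was at or below the 90th percentile of Malign_0. This cut was chosen after seeing the data. This kept 224 of 1794 Malign_1 cells and 2528 of 2809 Malign_0 cells in the long-term pools, and 210 of 2363 and 2263 of 2515 in the short-term T127 pools. Their stress genes summed to 1950 CPM against 1301 CPM and to 3230 CPM against 1705 CPM. Median UMIs per cell were 20114 against 20094.5 in the long-term and 30743 against 36674 in the short-term T127 pools. The labels were made from the cells' own expression, so the few Malign_1 cells kept are a selected part of that label. Wider gaps in other genes can follow from that selection, and the stress genes still differed. The kept cells therefore do not show the members apart from the stress genes.

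Slc2a1 and Bnip3 were further apart in these cells. Slc2a1 was at 409 CPM in Malign_1 against 85.2 CPM in Malign_0 in the long-term pools, which ran from 231 to 637 CPM against 74.2 to 104 CPM. Pools 1 and 2 held only 18 and 15 of these Malign_1 cells, and without both the highest pool was at 491 CPM. The short-term T127 level was 247 CPM against 58.7 CPM, with pools at 175 to 289 CPM against 56.3 to 61.7 CPM. Neither experiment's pools overlapped.

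Hk2 was at 145 CPM against 29.4 CPM and Bnip3 at 399.6 CPM against 103 CPM in the long-term cells of low stress share. Among short-term T127 cells Hk2 was at 54.4 CPM against 12.1 CPM, close to the 54.4 and 13.5 CPM of all cells, and Bnip3 at 150.4 CPM against 47.8 CPM. Both genes were higher in Malign_1 in every pool. Pfkp, Pdk1, Car9 and Pgk1 passed 2-fold as well in the long-term pools, with log2 ratios of 1.76, 1.63, 1.41 and 1.24. This made 7 members against 7.09% of all 8685 genes tested. Pdk1 was at 3.48 CPM in Malign_0 and reached the mean level only through Malign_1, at 12.9 CPM. In pool 2 Car9 was lower in Malign_1, at 3.35 against 8.83 CPM. Pdk1 was there at 3.35 against 2.67, Pfkp at 20.1 against 16.2 and Pgk1 at 67.0 against 51.7 CPM. These members were higher in Malign_1 in every other long-term pool.

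Pdk1 joined the first 3 with a log2 ratio of 1.08 in the short-term T127 pools. This made 4 members against 3.26% of 9191 genes. Pdk1 was at 10.9 against 4.62 CPM, so that it reached the mean level only through Malign_1. In pool 3 of these it was at 5.06 against 4.70 CPM. Car9 did not follow there, with a log2 ratio of 0.05 in these cells against 0.51 in all cells, and Eno1 was closer to 0 in both experiments, at 0.06 and -0.08. The other hypoxia genes past 2-fold numbered 13 of 18 in the long-term and 9 of 17 in the short-term T127 pools, all higher. Adm had log2 ratios of 3.79 and 3.73. Gbe1 in the long-term and Adm in the short-term T127 pools were below 5 CPM in Malign_0, at 3.17 and 4.60 CPM. These counts thus include genes that reached the mean level only through Malign_1. Of the 12 other glycolysis genes tested, Eno2 was past 2-fold higher, at 1.80 and 1.49, and Ldhb lower, at -1.96 and -1.13. Eno2 too reached the mean level only through Malign_1, with 2.99 and 2.63 CPM in Malign_0. Of 6 HIF subunits and regulators 2 were higher in the long-term and 0 in the short-term T127 cells, and 0 of 15 citrate cycle and respiratory chain genes passed in either. Which genes placed these cells in Malign_1 was not identified, and the part of the stress genes in the difference between all cells was not tested.

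**Figure D3:**
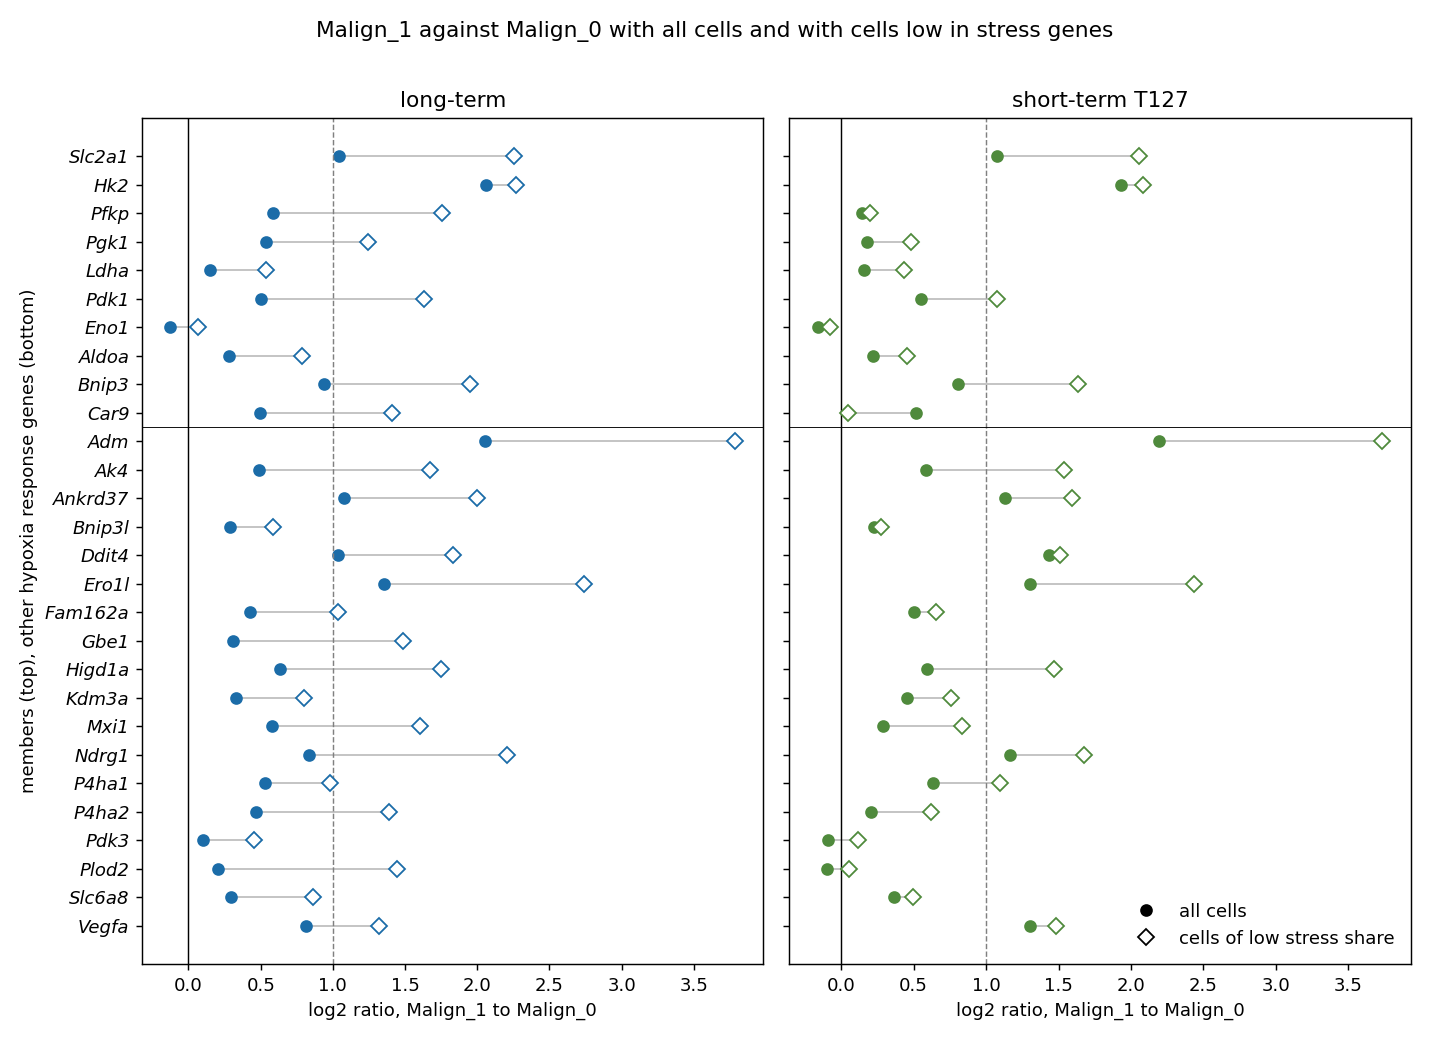
Log2 ratio of Malign_1 to Malign_0 (x axis) for the 10 genes and the other hypoxia response genes (y axis) in the long-term (left) and short-term T127 (right) pools, with filled circles for all cells, open diamonds for cells of low stress share and the dashed line at 2-fold. Most diamonds lie to the right of the circles, and Slc2a1 moves from 1.04 to 2.25 on the left and from 1.08 to 2.06 on the right.

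Bnip3 was the member that set the T22 labels furthest from Malign_0. Its long-term pools ran from 28.2 over 43.4 to 55.9 CPM in Malign_2 and from 15.6 over 22.01 to 35.3 CPM in Malign_3, all below the 82.8 CPM of the lowest Malign_0 pool. The log2 ratio was -1.23 for Malign_2 and -2.01 for Malign_3 against Malign_0, and -2.17 and -2.96 against Malign_1. Without pools 1, 2 and 3, the log2 ratio of Malign_2 to Malign_0 was -0.9995, just inside 2-fold, and no member then passed.

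Eno1 was also lower in T22 cells. Its pools ran from 521 over 739 to 807 CPM in Malign_0, from 518 over 654 to 700.1 CPM in Malign_1, from 268 over 366 to 393 CPM in Malign_2 and from 185 over 285 to 353 CPM in Malign_3. No pool of a T22 label reached the lowest pool of a T127 label, and the log2 ratios to Malign_0 were -0.98 for Malign_2 and -1.33 for Malign_3.

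Hk2 in the T22 labels was far below Malign_1. Against 31.4 CPM in Malign_0 it was at 28.4 CPM in Malign_2 and lower, at 19.6 CPM, in Malign_3. It ran from 12.8 over 23.0 to 58.2 CPM in Malign_2 and from 9.72 over 18.5 to 33.7 CPM in Malign_3, which put its log2 ratio to Malign_1 at -2.20 and -2.71. Pgk1 was below Malign_1 by similar amounts in both, at -1.27 and -1.18. Slc2a1 parted the T22 labels. Its log2 ratios to Malign_0 were 0.86 for Malign_2 and -0.17 for Malign_3, and those to Malign_1 were -0.18 and -1.22, and the pool ranges overlapped between Malign_3 and Malign_0 and between Malign_2 and Malign_1.

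A few members were higher in T22 cells. Pdk1 had log2 ratios to Malign_0 of 0.79 in Malign_2 and 0.94 in Malign_3, Car9 0.62 and 0.89, and Aldoa 0.41 in Malign_3. Past 2-fold were 1 member for Malign_2 and 2 for Malign_3 against Malign_0, and 3 and 5 against Malign_1. The background was high in each of these comparisons, at 36% and 36.6% of genes against Malign_0 and 36.9% and 37.1% against Malign_1, and the member counts, each of 10 tested, are to be read against it. Without pool 5 or pool 7, Pdk1 also passed between Malign_3 and Malign_0, which made 3. Pdk1 was below 5 CPM in Malign_0 and reached the mean level against it only through the T22 labels. The stress genes summed to 2700.0 CPM in Malign_2 and 4339 CPM in Malign_3 and the cell cycle genes to 521 and 408 CPM. The fibroblast genes summed to 861 and 68.7 CPM in these labels, against 4473 and 4459 CPM in Malign_0 and Malign_1. The neutrophil genes summed to 510 CPM in Malign_2 and to 53.3 to 58.9 CPM in the other malignant labels. The part of these lists in the ratios was not tested.

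Isozymes of the aldolase and enolase steps differed between the T22 and T127 labels as well. Aldoc, the brain-type aldolase, was at 165 CPM in Malign_2 (pools 117 to 208) and 247 CPM in Malign_3 (161 to 371) against 0.972 CPM in Malign_0 and 1.65 CPM in Malign_1. In the short-term pools it was at 85.5 and 185 CPM in Malign_2 and Malign_3 and at 0.244 and 0.416 CPM in Malign_0 and Malign_1. Eno3, the muscle-type enolase, had the opposite order, with 373 CPM in Malign_0 and 235 CPM in Malign_1 against 8.08 and 8.17 CPM in Malign_2 and Malign_3. Its short-term values were 420.3 and 282 CPM in Malign_0 and Malign_1 and 4.46 and 2.86 CPM in Malign_2 and Malign_3.

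Hk1, the hexokinase that most tissues express at a steady level, was lowest in Malign_2 of the long-term pools at 18.8 CPM, against 63.2 CPM in Malign_3, and it was level at 75.2 and 76.7 CPM between Malign_0 and Malign_1. Of the 13 other glycolysis genes tested in each comparison, 3 were higher and 3 lower in Malign_2 than in Malign_0, and 2 and 3 in Malign_3. Of 18 other hypoxia genes, 6 were higher and 4 lower in Malign_2, and 5 and 5 in Malign_3. Car12, a relative of Car9, was at 167 CPM in Malign_2 and 70.6 CPM in Malign_3 against 0.626 CPM in Malign_0. No citrate cycle or respiratory chain gene was past 2-fold lower in a T22 label, and 1 to 4 of the 15 or 16 tested were higher. All these list counts stand against the same 36% to 37.1% of all genes past 2-fold, and nothing particular to a list is read from them.

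**Figure D4:**
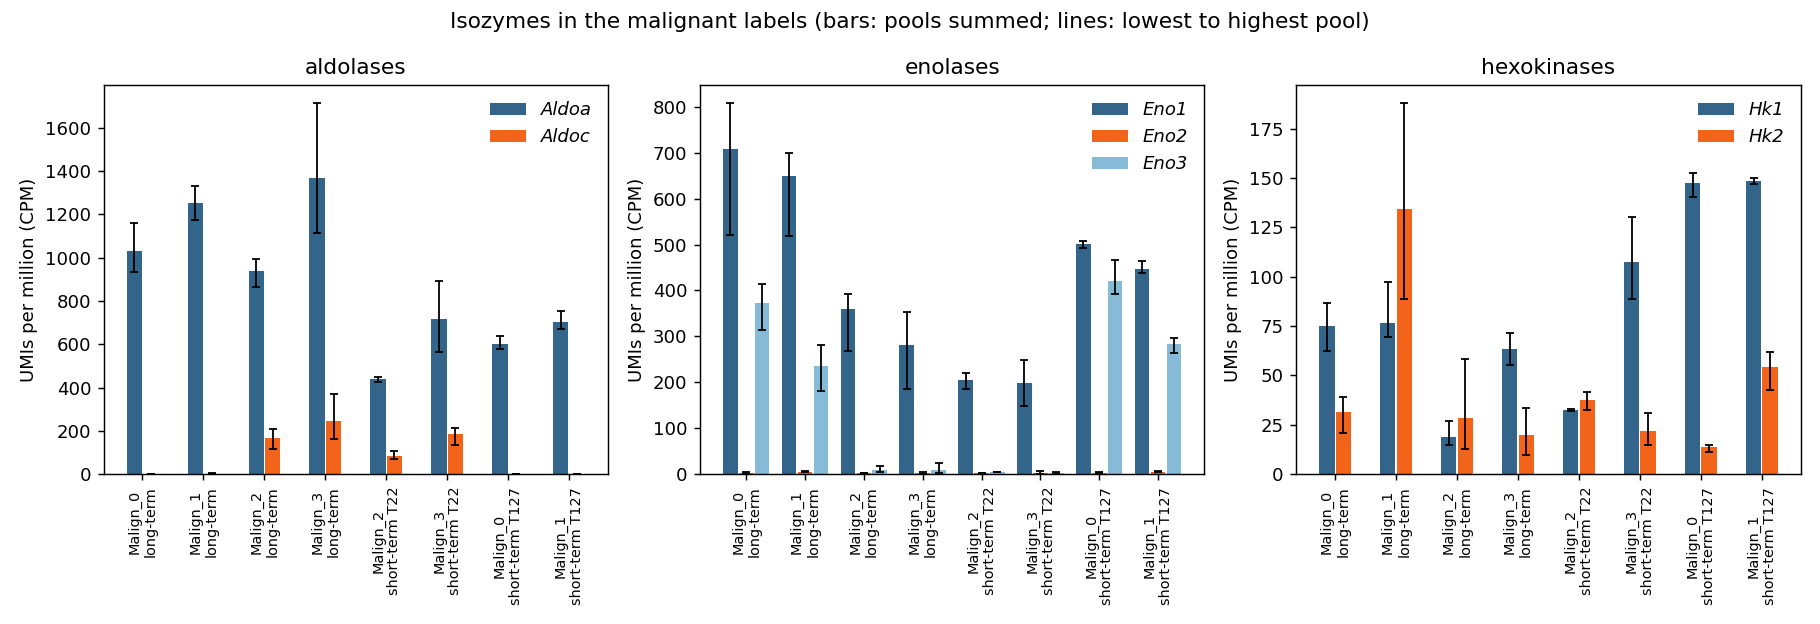
Levels of aldolase, enolase and hexokinase genes in the malignant labels of each experiment, as CPM on y axes that start at 0, with bars for all pools summed and lines from the lowest to the highest pool. Aldoc bars are visible only in Malign_2 and Malign_3 and Eno3 bars stand out only in Malign_0 and Malign_1, with 165 and 247 CPM of Aldoc and 373 and 235 CPM of Eno3 in the long-term pools.

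Within T22, Slc2a1 separated Malign_3 from Malign_2 in both experiments. It ran from 63.9 over 74.4 to 86.1 CPM in Malign_3 and from 143.8 over 154.1 to 166.8 CPM in Malign_2 in the long-term pools. In the short-term T22 pools it was at 66.9, 86.2, 73.2 and 101 CPM in Malign_3 and at 194, 202, 185.5 and 186 CPM in Malign_2. No pools overlapped, and the log2 ratios were -1.04 and -1.26. Pool ranges were apart for 3 of the 10 members in the long-term and for 6 in the short-term T22 pools, and the share of all genes was not computed. The long-term value was -0.96 with 10 CPM added. In the long-term and short-term T22 pools in turn, the epithelial genes summed to 8846 and 6841 CPM in Malign_3 against 3954 and 5039.7 CPM in Malign_2, the fibroblast genes to 68.7 and 18.7 CPM against 861 and 848 CPM and the macrophage genes to 376 and 154 CPM against 192 and 89.7 CPM, and their part in the ratios between these labels was not tested.

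Slc2a1 was the 1 member past 2-fold in each experiment, against 18% of all genes in the long-term and 20.2% in the short-term T22 pools. In the short-term pools the count was 2 with cells thinned, without cells that held Mki67 or Top2a, and without pool 2, where Bnip3 was the second. Bnip3 was lower in Malign_3 in every pool of both experiments, at 8.09, 11.7, 4.36 and 8.87 CPM against 14.8, 17.7, 15.8 and 17.1 CPM in the short-term pools, with log2 ratios of -0.78 and -0.92. The short-term Malign_3 values rest on 5 to 15 UMIs of Bnip3 a pool. Aldoa was higher in Malign_3 in every pool of both. It ran from 1115 to 1713 CPM against 862 to 992 CPM in the long-term pools and was at 892, 565, 637 and 662 CPM against 451, 447, 424 and 434 CPM in the short-term pools, with log2 ratios of 0.54 and 0.71.

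Of the HIF subunits and regulators, 1 was past 2-fold higher and 2 lower in Malign_3 than in Malign_2 among 7 tested in the long-term pools, and 1 and 4 among 9 in the short-term T22 pools. Hif1a and Epas1, the oxygen-controlled subunits of HIF-1 and HIF-2, were lower in Malign_3, with long-term log2 ratios of -1.47 and -2.16, while Egln3, a prolyl hydroxylase that marks them for degradation, was higher at 1.17 in the long-term and 3.02 in the short-term pools. Of the other hypoxia genes 1 was higher and 6 lower in Malign_3 among 18 tested in the long-term pools, and 2 and 4 among 16 in the short-term pools. These list counts stand against the same 18% and 20.2% of all genes, and nothing particular to a list is read from them. Ndufa4l2 and P4ha1, a mitochondrial protein and a collagen prolyl hydroxylase subunit, had the largest long-term log2 ratios, -2.90 and -2.65.

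Among macrophages with all pools and cells kept, Pfkp was the only member past 2-fold in any comparison. Its long-term pools ran from 10.2 over 19.8 to 34.2 CPM in Macro-M1, from 33.1 over 47.6 to 68.1 CPM in Macro-M2, from 23.9 over 50.1 to 63.7 CPM in Macro-MKI67 and from 14.2 over 21.8 to 31.9 CPM in Macro-others. Macro-M2 and Macro-MKI67 were thus high and Macro-M1 and Macro-others low, although the ranges of Macro-M1 and Macro-M2 overlapped slightly and that of Macro-MKI67 overlapped all 3 others.

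The Pfkp log2 ratios were 1.03 for Macro-M2 to Macro-M1, 1.09 for Macro-MKI67 to Macro-M1, -1.04 for Macro-others to Macro-M2 and -1.10 for Macro-others to Macro-MKI67. All 4 were close to 2-fold. Without pool 8 the first 3 were 0.87, 0.96 and -0.96, and without pool 3 the first was 0.98, so that the call was lost in each. The median log2 ratio over all genes tested was 0.21 for Macro-MKI67 to Macro-M1 and -0.15 for Macro-others to Macro-MKI67, and with the genes centred on their median the ratios were 0.93 for Macro-M2 and 0.88 for Macro-MKI67 to Macro-M1 and -0.95 for Macro-others to Macro-MKI67, none of them past 2-fold. The background was 2.97%, 12.4%, 3.16% and 8.73% of all genes for these 4 comparisons, and it was 1.46% for Macro-others to Macro-M1 and 7.61% for Macro-MKI67 to Macro-M2, where no member passed.

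In the short-term T22 pools Pfkp was at 33.6, 24.0, 35.6 and 30.1 CPM in Macro-M1, at 33.9, 56.7, 40.6 and 26.0 CPM in Macro-M2 and at 51.4, 32.0, 29.9 and 30.8 CPM in Macro-MKI67. It was at 8.62, 16.4, 15.3 and 8.37 CPM in Macro-others. Macro-others lay below the other 3 labels in every pool, with log2 ratios of -1.27, -1.60 and -1.49, against backgrounds of 1.63%, 4.2% and 9.56%. With 10 CPM added, the first of these was -0.88.

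The other 3 comparisons of these pools had no member past 2-fold, against 2.47% for Macro-M2 to Macro-M1, 7.14% for Macro-MKI67 to Macro-M1 and 8.81% for Macro-MKI67 to Macro-M2. Without pool 1 or pool 2, Pgk1 passed between Macro-MKI67 and Macro-M1, which made 1. In the short-term T127 pools, where Macro-M1 held too few cells, Pfkp was at 126, 125, 145 and 121 CPM in Macro-M2, at 185, 175, 194 and 187 CPM in Macro-MKI67 and at 168, 141, 147 and 175 CPM in Macro-others. Macro-M2 was here the lowest of the 3 labels in every pool. No member was past 2-fold in these pools, against backgrounds of 10.9% for Macro-MKI67 to Macro-M2, 5.73% for Macro-others to Macro-M2 and 8.95% for Macro-others to Macro-MKI67. Without pool 2, Slc2a1 passed between Macro-MKI67 and Macro-M2.

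Several members were higher in Macro-M2 than in Macro-M1 in all 8 long-term pools, by less than 2-fold. Bnip3 ran from 75.4 over 84.6 to 113 CPM in Macro-M2 and from 35.5 over 49.6 to 62.1 CPM in Macro-M1, without overlap. Ldha ran from 726 over 803 to 819 CPM against 420.0 over 591 to 621 CPM, also without overlap. The log2 ratios were 0.79 for Bnip3, 0.65 for Pgk1, 0.54 for Eno1, 0.48 for Ldha and 0.38 for Aldoa. The median log2 ratio of all genes tested was 0.10. The share of all genes higher in every pool was not computed, so the directions are not read as particular to the members.

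Hk2 and Car9 were level between Macro-M2 and Macro-M1, at -0.08 and -0.14. Among the regulators Hif1a was at 118 CPM in Macro-M2 against 57.4 CPM in Macro-M1. Egln3 had a log2 ratio of 1.80, at 9.28 against 1.96 CPM, with overlapping pools of 2.58 to 18.4 and 0 to 4.71 CPM. It thus reached the mean level only through Macro-M2. With it 2 of 6 regulators tested were past 2-fold, against the 2.97% of all genes. In the short-term T22 pools 0 of 6 were, against 2.47%. Of the other glycolysis and other hypoxia genes, 0 of 15 and 1 of 13 passed in the long-term pools. The stress genes summed to 4731 CPM in Macro-M2 and 4477 CPM in Macro-M1 and the cell cycle genes to 197 CPM and 212 CPM. The epithelial genes summed to 154 CPM and 101 CPM and the neutrophil genes to 261 CPM and 149.6 CPM, and the part of these lists in the ratios was not tested. In the short-term T22 pools no member was higher or lower in Macro-M2 in every pool, and Bnip3 and Ldha had log2 ratios of -0.10 and -0.01. The long-term pools mixed T22 and T127 tumors, and Macro-M1 held too few cells in the short-term T127 pools. Tumor model and label therefore cannot be told apart in the long-term macrophage ratios, those of Pfkp and Hif1a included.

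**Figure D5:**
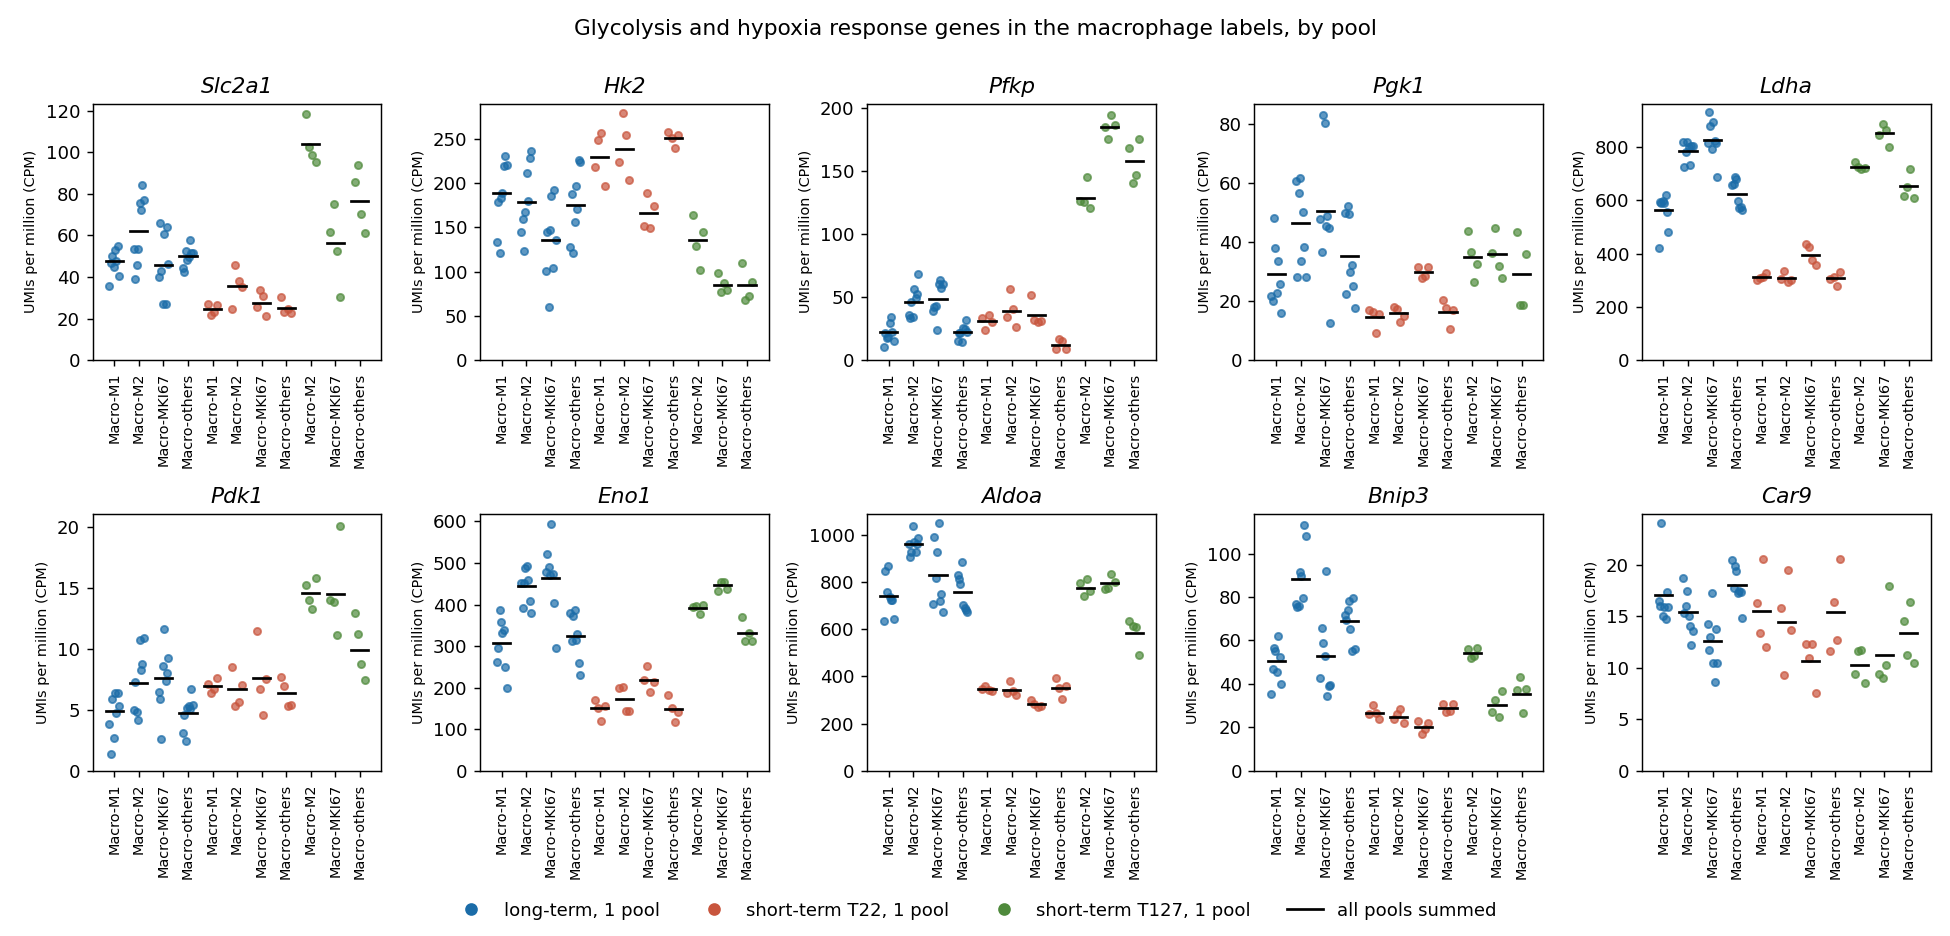
Levels of the 10 genes in the macrophage labels, 1 panel a gene, with CPM on the y axis from 0, points for single pools colored by experiment and black lines for all pools summed. Pfkp in Macro-others is low in the long-term and short-term T22 pools and lies between 141 and 175 CPM in the short-term T127 pools, and Hk2 is lower in Macro-MKI67 than in Macro-M2 of the same experiment.

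Hk2 was lower in the dividing macrophages of Macro-MKI67 than in Macro-M2 in every pool of all 3 experiments. The log2 ratio was -0.39 in the long-term pools. Hk2 was at 152, 188, 150.0 and 174 CPM against 224, 279, 255 and 204 CPM in the short-term T22 pools and at 98.2, 76.7, 86.7 and 79.3 CPM against 164, 129, 102 and 144 CPM in the short-term T127 pools, for log2 ratios of -0.52 and -0.67. None of these passed 2-fold. With Hk2 included, 3 members were higher and 2 lower in Macro-MKI67 in every short-term T22 pool, and 3 and 3 in every short-term T127 pool. In every long-term pool 0 were higher and 1 lower. The share of all genes with 1 direction in every pool was not computed, so the direction is not read as particular to Hk2. In the long-term, short-term T22 and short-term T127 pools in turn, the cell cycle genes summed to 1862, 2782 and 2139 CPM in Macro-MKI67 against 197, 263 and 171 CPM in Macro-M2. The epithelial genes summed to 271, 276 and 690.4 CPM against 154, 121 and 298 CPM, and the stress genes to 3905, 3441 and 4026 CPM against 4731, 4196 and 6474 CPM, and the part of these lists in the Hk2 ratios was not tested.

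Pgk1 went the other way in the short-term T22 pools, at 29.9 CPM in Macro-MKI67 against 15.9 CPM in Macro-M2, a log2 ratio of 0.87 with the same direction in 4 of 4 pools, and it was level in the short-term T127 pools at 0.03. Vegfa was lower in Macro-MKI67 than in Macro-M2 by 1.63 and 1.74 on the log2 scale in the short-term T22 and T127 pools. Of the other hypoxia genes tested there, 1 of 11 and 2 of 13 were past 2-fold, all lower, against 8.81% and 10.9% of all genes. In the long-term pools 0 of 13 were, against 7.61%. Macro-others was below Macro-M2 in 4 of 4 short-term T127 pools for the 6 members Hk2, Bnip3, Pdk1, Slc2a1, Aldoa and Eno1. Their log2 ratios were -0.68, -0.62, -0.51, -0.44, -0.41 and -0.24, and Pfkp was above it in 4 of 4, at 0.29. The share of all genes with the same direction in every pool was not computed. Nothing particular to the members is therefore read from these counts. Hif1a was at 253 CPM in Macro-others against 512 CPM in Macro-M2 in the short-term T127 pools. In the same pools the epithelial genes summed to 823 CPM in Macro-others against 298 CPM in Macro-M2, the cell cycle genes to 745 against 171 CPM, the stress genes to 4638 against 6474 CPM and the 4 red cell genes to 2804 against 365 CPM, with pools from 6.28 to 10953 CPM in Macro-others, and their part in these ratios was not tested.

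Levels within 1 label also differed between the experiments. In Macro-M2, Ldha was at 787 CPM in the long-term, 308 CPM in the short-term T22 and 727 CPM in the short-term T127 pools. In Malign_2 the long-term and short-term T22 values were 937 and 439 CPM for Aldoa, 359 and 206 CPM for Eno1 and 43.6 and 16.4 CPM for Bnip3. The T22 pools were low for these genes and high for others. Hk2 in Macro-M2 was at 238.6 CPM in the short-term T22, 178.3 CPM in the long-term and 136 CPM in the short-term T127 pools, and in Malign_2 the short-term T22 level was above the long-term level for Slc2a1, at 192 against 155 CPM, and for Pfkp, at 33.3 against 24.8 CPM. The tumor model, the mix of transplants, the libraries and the treatment time of an experiment cannot be told apart.

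Within the long-term experiment the order of the pools was alike across labels for some members. Eno1 was lowest in pool 8 in 8 of the 8 malignant and macrophage labels, and Hk2 was lowest in pool 3 in 7 of 8. Pgk1 was highest in pool 3 in 6 of 8 labels and lowest in pool 8 in 6 of 8, and in Malign_0 it was at 114 CPM in pool 3 and 41.2 CPM in pool 8. In the short-term T22 pools Eno1 was lowest in pool 3 in 6 of 6 labels.

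The share of single cells with a UMI differed widely by member. With each Malign_0 cell of the long-term pools thinned to 3000 UMIs, Aldoa was seen in 91.5%, Ldha in 88.9% and Eno1 in 83.7%, and Pdk1 in 1.07% and Car9 in 2.63%. With each cell thinned to 3000 UMIs, Hk2 was seen in 8.33% of Malign_0 and 30.0% of Malign_1 cells of the long-term pools, Slc2a1 in 20.9% and 32.2% and Bnip3 in 24.2% and 36.0%. At full depth Hk2 was seen in 34.0% and 73.5%. In B cells it was seen in 1.94% of 309 cells at full depth and in 0 of the 44 deep enough to be thinned, which allows a share of cells with a UMI of up to 8.04% and sets no limit on cells that express it. Median UMIs per cell were 19775 in Malign_0, 20459.5 in Malign_1 and 2082 in B cells.

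Over the 45 pairs of members, the median Pearson correlation of log2(UMI + 1) across thinned cells was 0.06, 0.09, 0.06 and 0.07 in Malign_0 to Malign_3 of the long-term pools, where the points share a library and a depth. The highest was 0.38 between Aldoa and Bnip3 in Malign_1, and at 6000 UMIs a cell the median there was 0.15 and the highest was 0.49, between Ldha and Aldoa. Most members were sparse at this depth, and a low correlation in sparse counts is no finding.

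For each member the 3 genes with the most similar pattern over the 21 long-term labels of at least 50 cells were taken from 5713 genes, by Pearson's r of log2(CPM + 1). The points share their libraries, and the values are a description. Glycolysis genes were among them for 3 members, with Pkm at 0.89 and Ldha at 0.86 for Pgk1, Pgk1 at 0.81 and Gapdh at 0.80 for Eno1, and Tpi1 at 0.91 and Gapdh at 0.87 for Aldoa. Over the 14 short-term T127 labels the value for Aldoa and Gapdh was 0.94, and over the 17 short-term T22 labels it was 0.32.

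For the other 7 members the nearest genes were from outside the glycolysis list. Ldha was nearest to 9130401M01Rik, Naa20 and Hint1, at 0.89, 0.87 and 0.86. Slc2a1 was nearest to Med29, Psmd1 and Trps1, at 0.89, 0.85 and 0.84, and Bnip3 to Arl8a, Sqstm1 and Esd, at 0.88, 0.87 and 0.86. Hk2 was nearest to Ifrd1, Spg21 and Nfkbiz, at 0.81, 0.80 and 0.79, and Pfkp to Bhlhe40, Esyt1 and Rps6ka3, at 0.74, 0.73 and 0.72. Car9 was nearest to Trf, Tmem141 and Atp6v0b, at 0.90, 0.89 and 0.87, and Pdk1 to Tmem252, Ecscr and Inhbb, at 0.76, 0.75 and 0.73.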

How the data were processed

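Droplet 3' single-cell libraries (10x Genomics) of hashtagged tumor pools were measured. Per the labels and the study's methods, the authors aligned reads with Cell Ranger 6.0.0 to the mouse build GRCm38 with introns counted, removed doublets with Scrublet and deposited raw UMI counts per cell with a cluster label for each cell. Their tables of normalized values were not used. Doublets were not called again, and the deepest 5% of cells were left out as an alternative. From the deposited counts, UMIs were summed per label and experiment and given as CPM (Python 3.11.15, numpy 2.4.6, scipy 1.17.1, matplotlib 3.10.9), with exact Poisson intervals for levels, conditional binomial intervals for ratios and exact Clopper-Pearson intervals for shares, at 95%. Labels needed at least 50 cells and pools at least 20 cells of a label, except in the comparison of cells of low stress share, which had no pool minimum. Named genes were all 10 members, genes of fixed pathway lists past 2-fold (at most 8 a list, largest first) and 3 nearest genes a member with a mean of at least 20 CPM. The members and lists were chosen with earlier results of these data known. The calculation was tested on simulated counts. Reads shared with near-identical copies could be split or left uncounted, and few UMIs in a copy do not show how many. Aldoart1, Aldoart2, Pgk2 and Ldhc held 0 to 37 UMIs an experiment. Eno1b and Ldhal6b held 0, and Pgk1-rs7 was absent from the count tables.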

Additional observations from a re-analysis of the deposited data

Results flagged for a closer look

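Among 190 groups of 4 to 8 pools, 6 held a pool that stood apart from the others by Dixon's test, where chance alone would set apart about 1 in 20. Pfkp in Macro-MKI67 of the short-term T22 experiment was at 51.4 CPM in pool 1 and at 29.9 to 32.0 CPM in the others. Eno1 in Malign_1 of the short-term T127 experiment was at 464 CPM in pool 3 and at 439 to 443 CPM in the others. Aldoa in Macro-others of the short-term T127 experiment was at 489.6 CPM in pool 4 and at 609 to 633 CPM in the others. Car9 stood apart in 3 groups. It was at 24.0 CPM in pool 3 of the long-term Macro-M1 cells against 14.7 to 17.3 CPM in the other pools. In the short-term T127 experiment it was at 17.9 CPM in pool 4 of Macro-MKI67 against 8.98 to 10.3 CPM, and at 14.8 CPM in pool 3 of Malign_1 against 10.4 to 10.8 CPM.

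Of 110 pairs of effects seen in the long-term and a short-term experiment, 1 had opposite directions in every pool. Pfkp in Macro-others was lower than in Macro-M2 in all 8 long-term pools, with a log2 ratio of -1.04, and higher in all 4 short-term T127 pools, with a log2 ratio of 0.29 and pools from 0.02 to 0.53. The short-term experiments were not set against each other in this count. Between them Pfkp was opposite as well, since Macro-others was below Macro-M2 in every short-term T22 pool, with a log2 ratio of -1.60. These differences between the experiments were not tested.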

How the results depend on the processing

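Of 411 recomputed counts of members past 2-fold, 359 stayed within 1.5 times the main count and 52 did not. Of 397 recomputed log2 ratios of the 24 calls, 381 moved by no more than the standard deviation of the per-pool log2 ratios. A further 16 moved by more and 0 changed sign. Leaving out 1 pool can hardly move a ratio by more than that deviation, so those recomputations say little about stability. The pair Malign_2 to Malign_1 and the pair Malign_3 to Malign_1 kept their counts of 3 and 5 without each pool in turn. The background for these pairs was 36.9% and 37.1% of all genes, and nothing particular to the members is read from these counts. No paired test was made, since no comparison of labels was tested, and ratios within a pool are given in the report as directions and ranges.

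A threshold of 1.5-fold moved the long-term counts to 4 for Malign_1 to Malign_0, 6 for Malign_2 and for Malign_3 to Malign_0, 2 for Malign_3 to Malign_2, 3 for Macro-M2 and for Macro-MKI67 to Macro-M1, 1 for Macro-MKI67 to Macro-M2 and 2 for Macro-others to Macro-MKI67. It moved the short-term T22 counts to 4 for Malign_3 to Malign_2, 1 for Macro-MKI67 to Macro-M1 and to Macro-M2 and 3 for Macro-others to Macro-MKI67, and the short-term T127 counts to 3 for Macro-MKI67 and 2 for Macro-others to Macro-M2. Of all genes, 5.41% were past 1.5-fold for the long-term Malign_1 to Malign_0, 55.1% and 55.9% for Malign_2 and Malign_3 to Malign_0, 31.7% and 34.3% for Malign_3 to Malign_2 in the long-term and short-term T22 pools, and 7.79% to 30.2% for the macrophage pairs named. With 10 CPM added the long-term count was 1 for Malign_1 to Malign_0 and 0 for Malign_3 to Malign_2, Macro-M2 and Macro-MKI67 to Macro-M1, and Macro-others to Macro-M2 and to Macro-MKI67. It was 0 for Macro-others to Macro-M1 of the short-term T22 and 1 for Malign_1 to Malign_0 of the short-term T127 pools. Thinning to 3000 UMIs gave 1 for Malign_1 to Malign_0, 1 for Macro-MKI67 to Macro-M2 and 0 for Macro-others to Macro-M2 and to Macro-MKI67 in the long-term pools, 2 for Malign_3 to Malign_2, 1 for Macro-MKI67 to Macro-M1 and 2 for Macro-others to Macro-MKI67 in the short-term T22 pools, and 1 for Macro-MKI67 to Macro-M2 in the short-term T127 pools. Without cells that held Mki67 or Top2a the long-term count was 1 for Malign_1 to Malign_0 and 0 for Macro-M2 to Macro-M1 and Macro-others to Macro-M2, and the short-term T22 count for Malign_3 to Malign_2 was 2. The mean over cells gave 0 for the long-term Macro-others to Macro-M2 and to Macro-MKI67, and 1 for the short-term T22 Macro-MKI67 to Macro-M1. Centring on the median gene gave 0 for the long-term Macro-M2 and Macro-MKI67 to Macro-M1 and Macro-others to Macro-MKI67. Keeping every copy of a barcode gave 0 for Macro-others to Macro-M2, and leaving out pools 1, 2 and 3 gave 0 for Malign_2 to Malign_0. Cells of low stress share gave 7 and 4 for Malign_1 to Malign_0 in the long-term and short-term T127 pools.

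Leaving out 1 pool at a time gave 0 to 1 for the long-term Macro-M2 and Macro-MKI67 to Macro-M1 and Macro-others to Macro-M2, 1 to 2 for the short-term T22 Malign_3 to Malign_2, 0 to 1 for the short-term T22 Macro-MKI67 to Macro-M1, and 0 to 1 for the short-term T127 Macro-MKI67 to Macro-M2. Most of these calls lie close to the threshold, and the cause of each move was not tested. Pdk1 and Car9 rest on few UMIs in small labels, as do Hk2 in endothelial cells and Bnip3 in the short-term Malign_3 cells.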
